A study of Bos taurus with 24 samples.

Results

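The late response of low responder monocyte-derived macrophages (MDMs) to E. coli was read from 6 libraries, the 3 control and the 3 exposed wells of the low responder group at 18 hours, out of 24 libraries in the study. The wells were chosen by their labels alone, with no measured value, and the control and exposed wells that share the number of the library code (91, 92 or 94) were treated as a pair from 1 cow. The cells came from the blood of female, lactating Holstein cows, which the study had sorted into high and low responders by the nitric oxide that their MDMs made after E. coli. Every culture was grown for 6 days from adherent blood monocytes in serum-free medium with 5 ng/ml recombinant bovine GM-CSF. Exposed wells then received E. coli inactivated with PFA at 5 bacteria per cell, while control wells received none, and RNA was taken 3 or 18 hours later. The bacteria were thus not replicating, each time point had its own plate and its own control wells, and each phenotype was represented by 3 cows. By the study's methods the same cows gave the wells of both time points. A code number does not identify an animal across time points or phenotypes. Cow 91, 92 or 94 below means the low responder pair of that number at 18 hours unless another group is named.

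Macrophages sense lipopolysaccharide of Gram-negative bacteria through TLR4 and its partner CD14. The signal runs through MYD88 to NF-kB, which switches on cytokines, chemokines and its own inhibitors within hours, and through TBK1 to type I interferon and the genes that interferon induces. Later the cells make antimicrobial products, among them nitric oxide from NOS2, and change their surface receptors and metabolism.

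The 6 libraries held between 8987288 and 20936554 expected counts, the estimated number of read pairs per gene before any normalization, and levels are given here as CPM, counts scaled to a common library size after TMM normalization. Of 17 macrophage and monocyte markers, 5 could be matched to a gene, and each was present in every well. CD68 had 1448 ± 175 CPM (SD, n = 3 wells) in the controls and 2198 ± 231 CPM after exposure, and CTSS, a lysosomal protease of antigen-presenting cells, had 5416 ± 271 and 4338 ± 568 CPM. Of the 5, CD14, AIF1 and MSR1 were called lower after exposure and CD68 higher, with values given below. For B cells 1 of 6 markers and for neutrophils 1 of 7 could be matched, and both were close to 0. The B cell gene CD79A lay between 0.308 and 0.840 CPM over the 6 wells and the neutrophil gene LTF between 0 and 1.01 CPM. With 1 gene per type, these values do not show whether such cells were absent. The cytotoxic cell gene PRF1 rose from 0.362 ± 0.0501 to 1.54 ± 0.836 CPM (log2 fold change 1.88, SE 0.41, adjusted p = 0.00398). Markers of T cells, dendritic cells, platelets and red cells had no matched identifier and were not analysed here. In bulk RNA, fewer cells of a type and less RNA per cell cannot be told apart.

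At 18 hours, 3419 of 11759 genes tested (29.1%) differed between the exposed and control wells of low responders with edgeR's quasi-likelihood test, at a Benjamini-Hochberg adjusted p below 0.05 and a fold change above 1.5. More genes fell than rose, 2092 (17.8%) against 1327 (11.3%). By size, 293 genes rose and 460 fell by more than 4-fold, and 94 rose and 63 fell by more than 16-fold. The median log2 fold change was 1.07 among the genes that rose and -1.21 among those that fell. A test with a term for the cow favours genes whose pairs agree, and in 3400 of the called genes all 3 cows moved in the same direction. In 3135 the 3 exposed wells did not overlap the 3 control wells, against 50.9% of all genes tested. The plot of level and change shows these genes over the whole range of abundance.

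**Figure D1:**
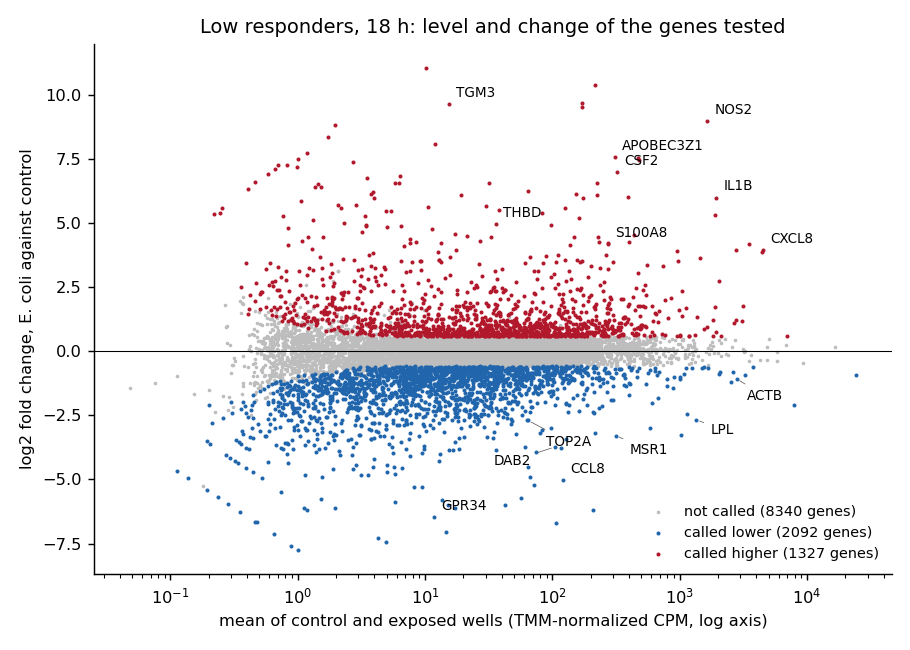
Each point is 1 of the 11759 genes tested in low responders at 18 hours, with the mean CPM of control and exposed wells on a log axis (x) and the log2 fold change, E. coli against control (y). Red points are the 1327 genes called higher, blue points the 2092 called lower and grey points the 8340 not called. NOS2 and IL1B stand high on the right, and GPR34 and CCL8 low.

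Gene symbols were at hand for 2803 of 24616 Ensembl identifiers. They came from the study's tables of its own comparison of high and low responders. Of the 2270 tested genes with a symbol, 41.6% were called, 454 of them higher and 491 lower. The shares given for gene lists below are to be read against these values as well as against 29.1%. The lists hold 1015 symbols, of which 349 were matched to an identifier, and each list is therefore partial. The 12 genes with a symbol per direction that changed most were named only where control and exposed wells did not overlap. In these genes, among them NOS2, CCL8, MSR1, GPR34 and SIGLEC1, the lack of overlap was thus fixed by the rule.

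NOS2 (ENSBTAG00000006894), the inducible nitric oxide synthase, had 6.70, 4.04 and 8.72 CPM in the control wells of cows 91, 92 and 94 and 4272, 2080 and 3554 CPM in their exposed wells. Every exposed well lay far above every control well (log2 fold change 8.98, SE 0.23, adjusted p = 2.44e-08). GCH1, which makes the cofactor that nitric oxide synthases need, rose from 21.8 ± 2.02 to 86.0 ± 8.98 CPM (log2 fold change 1.97, adjusted p = 1.36e-06). ARG2, an arginase that uses the same substrate, rose from 142 ± 11.6 to 397 ± 20.4 CPM, and ASS1, which rebuilds arginine from citrulline, fell from 28.6 ± 8.63 to 6.08 ± 0.518 CPM (log2 fold change -2.19, adjusted p = 0.000134). Of the 4 tested genes of nitric oxide and arginine metabolism, 3 rose and 1 fell. The control and exposed wells of these 4 genes did not overlap.

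Among 11 tested cytokines, 7 rose and 2 fell, with a median log2 fold change of 1.94 against 0.00 over all genes tested. IL1B, a pyrogenic cytokine that the inflammasome matures, had 39.8, 36.0 and 105 CPM in the control wells of cows 91, 92 and 94 and 4416, 1763 and 5269 CPM in their exposed wells (log2 fold change 6.00, SE 0.28, adjusted p = 3.64e-07). CSF2, the gene of GM-CSF, which the medium also contained as protein, went from 4.77, 5.80 and 3.70 CPM to 783, 478 and 652 CPM (log2 fold change 6.98, SE 0.24, adjusted p = 8.07e-08). In both genes the lowest exposed well was that of cow 92. LIF and IL36G, both secreted cytokines, rose by log2 fold changes of 3.16 and 3.13 (adjusted p = 1.49e-05 and 1.64e-05). IL6 did not differ: its control wells held 0.609, 0.352 and 1.93 CPM and its exposed wells 0.879, 0.350 and 1.76 CPM (log2 fold change 0.07, SE 0.54, adjusted p = 0.927). The 6 wells overlapped fully, and each of them held fewer than 2 CPM of IL6. CSF1, the macrophage growth factor, fell from 620 ± 26.4 to 312 ± 31.6 CPM (log2 fold change -0.99, adjusted p = 2.24e-05). Outside the list, TNFSF13, the B cell factor APRIL, fell from 28.8 ± 12.2 to 1.97 ± 0.607 CPM (log2 fold change -3.84, adjusted p = 1.92e-07). IL18 went from 13.1 ± 3.17 to 8.58 ± 1.80 CPM with overlapping wells, and its call (adjusted p = 0.0362) was lost when any 1 of the cows was left out or the cow was not fitted.

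Of 8 tested chemokines, 6 rose and 1 fell. CXCL8, which attracts neutrophils, had 331, 536 and 836 CPM in control wells and 8365, 6125 and 11010 CPM in the exposed wells of the same cows (log2 fold change 3.96, SE 0.21, adjusted p = 7.27e-07). CCL5, which attracts T cells and monocytes, rose from 327 ± 21.7 to 5236 ± 1663 CPM, and CXCL16 from 138 ± 6.93 to 774 ± 142 CPM. CXCL2 rose from 365 ± 80.6 to 6654 ± 1540 CPM, a value that is less certain because its expected counts were not whole in any of the 6 libraries, as happens when reads are split between near-identical genes. CCL8, a monocyte chemokine, moved the other way. It had 289, 202 and 211 CPM in control wells and 3.45, 4.27 and 16.6 CPM in exposed wells, with no overlap (log2 fold change -5.03, SE 0.53, adjusted p = 4.93e-05), and the log2 fold change was -5.97 without cow 94, whose exposed well was the highest. Of 11 receptors for chemokines and cytokines, 5 rose and the others were not called, the rises being led by the decoy-like receptor CCRL2 (log2 fold change 2.31, adjusted p = 1.26e-06) and by CXCR4 (1.31, adjusted p = 7.76e-05), while CCR1 had 566 ± 81.2 and 468 ± 122 CPM.

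**Figure D2:**
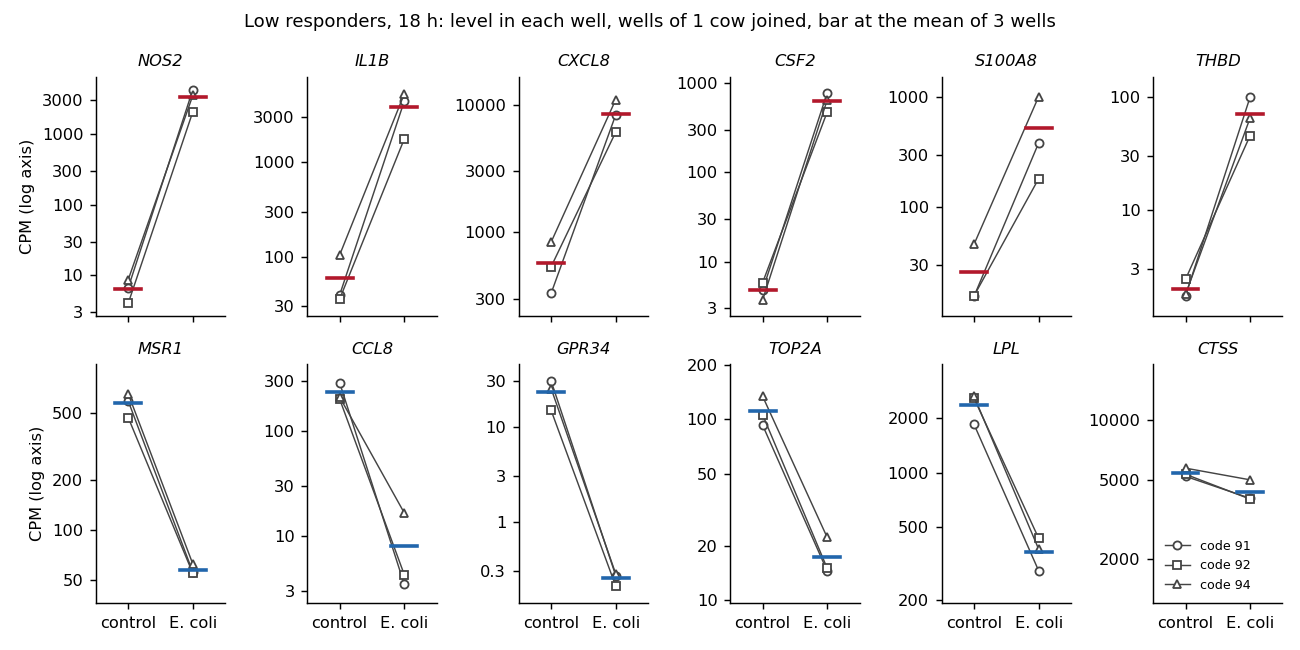
Level of 12 genes in the 3 control and 3 exposed wells of low responders at 18 hours, in TMM-normalized CPM on log axes that span different ranges, with a line joining the wells of 1 cow and a bar at the mean of 3 wells (red where the log2 fold change is positive, blue where it is negative). In the upper row every exposed well lies above every control well, in the lower row the exposed wells lie below, and the scale of CTSS shows a fall from 5416 to 4338 CPM that is under the 1.5-fold limit.

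Antimicrobial proteins formed a group in which 7 of 9 tested members rose and 1 fell (median log2 fold change 1.77). S100A8 and S100A9, the subunits of calprotectin, which withholds metal ions from bacteria, rose in every cow. S100A8 had 15.6, 15.8 and 46.2 CPM in control wells and 384, 182 and 1009 CPM in exposed wells (log2 fold change 4.19, SE 0.25, adjusted p = 1.37e-06), and S100A9 9.23, 6.50 and 27.7 CPM against 219, 101 and 461 CPM (log2 fold change 4.17). Cow 94 had the highest level of both genes in both kinds of well. ACOD1, which makes the antibacterial metabolite itaconate, rose from 118 ± 37.5 to 1783 ± 363 CPM (log2 fold change 3.94, adjusted p = 1.18e-07). CHI3L1, a chitinase-like protein, fell from 76.6 ± 39.3 to 29.5 ± 16.8 CPM (log2 fold change -1.40, adjusted p = 6.01e-06). RETN, the gene of resistin, rose from 4.87 ± 3.94 to 246 ± 135 CPM (log2 fold change 5.60, adjusted p = 2.80e-07).

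The oxidative burst and antioxidant genes counted 6 rises and 1 fall among 13. The NADPH oxidase subunits CYBB and NCF1 rose by log2 fold changes of 1.19 each (adjusted p = 0.000223 and 0.000211). NFE2L2, a factor that acts on antioxidant genes, and TXNRD1, a thioredoxin reductase, rose (log2 fold changes 1.08 and 0.96). HMOX1, the haem-degrading enzyme, fell from 87.9 ± 16.8 to 34.1 ± 4.55 CPM (log2 fold change -1.35, adjusted p = 0.000405).

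Of 13 factors and feedback genes of NF-kB, 12 rose, with a median log2 fold change of 1.17. NFKBIZ, an inhibitor-like protein that helps NF-kB at secondary genes, rose from 99.3 ± 2.86 to 837 ± 101 CPM (log2 fold change 3.07, adjusted p = 6.97e-08). TNFAIP3, the enzyme A20 that ends the signal, rose from 33.0 ± 3.13 to 221 ± 30.0 CPM (log2 fold change 2.73), and the subunit NFKB2 from 99.8 ± 4.40 to 406 ± 68.9 CPM (2.01). TNFAIP2 was the member that was not called, with 28.7 ± 1.51 and 40.5 ± 6.10 CPM (log2 fold change 0.48, adjusted p = 0.0206). The upstream sensing list was mixed, with 3 rises and 3 falls among 10. The kinase gene IRAK2 rose (log2 fold change 2.34), TBK1 rose (0.95), CD14 fell from 321 ± 114 to 156 ± 66.1 CPM (-1.08, adjusted p = 4.02e-05), and the adaptor MYD88 fell (-0.72), a call that was lost without cow 91. TLR4 had 242 ± 10.6 CPM in control and 202 ± 19.5 CPM in exposed wells (log2 fold change -0.26, adjusted p = 0.0277).

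Among 19 transcription factors of macrophages, 7 rose and 3 fell. PRDM1, the repressor BLIMP-1, rose from 49.6 ± 2.60 to 194 ± 52.8 CPM (log2 fold change 1.93, adjusted p = 3.74e-06), and MAF, a factor of resting tissue macrophages, fell from 11.2 ± 7.09 to 1.39 ± 0.104 CPM (log2 fold change -2.88, adjusted p = 0.000118). PPARG, a nuclear receptor of lipid metabolism, fell by 0.62 on the log2 scale, and this call was lost without cow 94. In the inflammasome and cell death list, 6 of 8 genes rose and 1, IL18, fell. BCL2A1, which protects cells from apoptosis, rose from 153 ± 18.4 to 1781 ± 290 CPM (log2 fold change 3.53), the sensor gene NLRP3 from 60.4 ± 8.70 to 240 ± 36.8 CPM (1.98) and NAIP, which recognises bacterial secretion proteins and flagellin, from 77.6 ± 16.1 to 300 ± 62.8 CPM (1.95).

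Interferon-stimulated genes did not move together at 18 hours. Of 33 tested, 5 rose, 7 fell and 21 were not called, and the median log2 fold change was -0.02. Of all 2270 tested genes with a symbol, 454 rose and 491 fell, with a median of 0.04. The counts and the median of this list lay near those values. GBP5, an interferon-induced GTPase, rose from 36.8, 10.8 and 28.9 CPM in control wells to 408, 76.8 and 255 CPM in the exposed wells of cows 91, 92 and 94 (log2 fold change 3.15, SE 0.13, adjusted p = 1.92e-07). RSAD2 (viperin) and ISG15 rose by 1.33 and 0.92 on the log2 scale (adjusted p = 8.01e-05 and 0.00178), and neither call held when the cow was not fitted. IFITM2, DHX58, IFI44L and UBA7 fell by between 0.81 and 1.13 on the log2 scale, with no overlap between control and exposed wells. IFI44L, for one, had 148 ± 11.4 CPM in control and 83.1 ± 15.0 CPM in exposed wells (adjusted p = 0.000238), a call that was lost without a term for the cow. Normalizing to library totals alone gave 5 rises and 10 falls in this list.

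Genes of MHC class I processing rose in 8 and fell in 1 of 14. The immunoproteasome subunit PSMB10 rose from 51.4 ± 9.12 to 137 ± 16.5 CPM (log2 fold change 1.43, adjusted p = 7.20e-06), TAPBPL, an editor of bound peptides, rose by a log2 fold change of 1.15 (adjusted p = 9.08e-06), and the class I regulator NLRC5 by 0.82. B2M, the light chain, had 4207 ± 263 and 5894 ± 359 CPM, a log2 fold change of 0.49 that was under the 1.5-fold limit. CALR, a chaperone, fell by 0.63 on the log2 scale, which was not called without cow 91. Of 5 tested class II and costimulation genes, MARCH1 rose (0.93) and BOLA-DMB fell from 77.5 ± 9.24 to 32.9 ± 5.49 CPM (log2 fold change -1.24, adjusted p = 0.000503), and CD74 had 362 ± 22.0 and 414 ± 72.4 CPM. In the immune checkpoint list, 7 of 11 genes rose and 2 fell. CD274 (PD-L1), the ligand that restrains T cells, rose from 25.7 ± 4.69 to 315 ± 124 CPM (log2 fold change 3.55, adjusted p = 3.49e-07), while VSIR (VISTA), another restraining molecule, had 17.0, 9.67 and 14.05 CPM in control and 1.08, 0.770 and 2.05 CPM in exposed wells (log2 fold change -3.40, adjusted p = 4.19e-06).

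**Figure D3:**
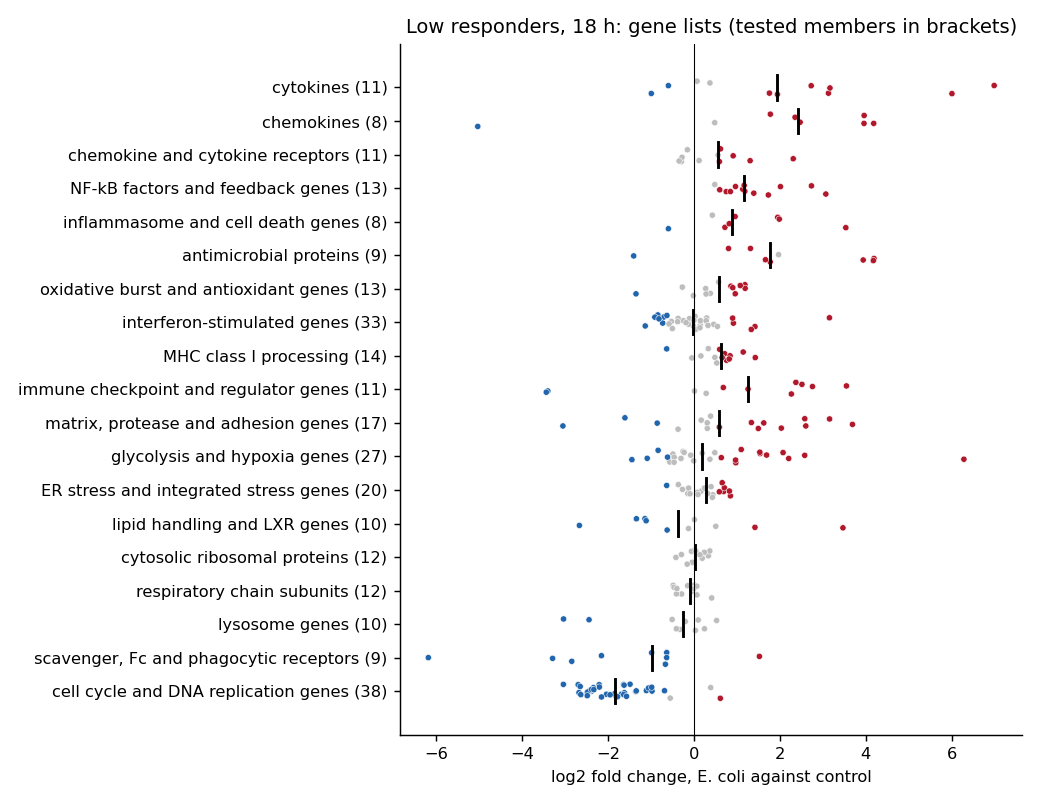
Log2 fold change, E. coli against control, in low responders at 18 hours for the tested members of 19 gene lists, with 1 point per gene and a black bar at the median of each list. Red points are members called higher, blue points members called lower and grey points members not called. NF-kB genes lie to the right of 0, cell cycle genes to the left, and interferon-stimulated genes on both sides.

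Of 35 scavenger, Fc and phagocytic receptors in the list, 9 could be tested. Of these, 8 were lower in exposed wells and 1 was higher. The falls numbered 6 without cow 92 and 4 when edgeR tested against a fold change of 1.5. MSR1, a scavenger receptor for modified lipoproteins and bacteria, had 589, 469 and 651 CPM in control wells and 56.0, 55.0 and 62.5 CPM in exposed wells (log2 fold change -3.29, SE 0.18, adjusted p = 1.04e-06). The 3 exposed wells lay close together and far below every control well. FCGR3A, an Fc receptor for IgG, had 103, 107 and 119 CPM in control and 22.4, 15.1 and 42.2 CPM in exposed wells (log2 fold change -2.15, adjusted p = 0.00325), and the lectin CLEC5A from 12.8 ± 2.31 to 1.78 ± 0.511 CPM (-2.84). LYVE1, a hyaluronan receptor, was sparse, with 94 counts over the 3 control wells and 1 count over the 3 exposed wells. CLEC4E (Mincle), a lectin receptor for microbial glycolipids, was the member that rose, from 13.5 ± 2.31 to 41.2 ± 17.2 CPM (log2 fold change 1.52, adjusted p = 0.00182).

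Other surface and adaptor genes of macrophages were among the genes that fell most. GPR34, a receptor for lysophosphatidylserine, had 30.1, 14.8 and 25.2 CPM in control wells and 0.271, 0.210 and 0.282 CPM in exposed wells (log2 fold change -6.47, SE 0.22, adjusted p = 7.02e-08). SIGLEC1 (CD169), a sialic acid receptor of resident macrophages, had 27.2, 16.1 and 31.2 CPM in control wells and 1.62, 1.68 and 1.13 CPM in exposed wells (log2 fold change -4.01, adjusted p = 4.23e-06). In both genes every exposed well was below every control well, which the rule for naming them required. DAB2, an endocytic adaptor, fell from 195 ± 80.3 to 13.9 ± 2.78 CPM (log2 fold change -3.73), and IQGAP2 and ABI3, which act on the actin cytoskeleton, fell by 3.39 and 3.34 on the log2 scale. ARHGEF10L, a guanine nucleotide exchange factor, fell by 5.29 on the log2 scale, with a range from -4.65 without cow 91 to -6.13 without cow 94. AIF1, a macrophage actin-bundling protein, fell from 72.5 ± 18.1 to 30.5 ± 7.19 CPM (log2 fold change -1.25). THBS1, a matrix glycoprotein, fell from 145 ± 58.5 to 20.7 ± 18.9 CPM. CD68, in contrast, was higher in each exposed well than in any control well (log2 fold change 0.60, adjusted p = 0.000398), a change so near the 1.5-fold limit that it was not called with upper-quartile factors or with library totals alone.

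Among the genes with the largest rises, TGM3, a transglutaminase, had 0, 0 and 0.0772 CPM in control wells and 57.1, 14.1 and 20.9 CPM in exposed wells, from 1 and 1341 counts. A fitted log2 fold change of 9.65 for it rests on that 1 control count and went from 8.82 without cow 91 to 11.5 without cow 94. APOBEC3Z1, a cytidine deaminase of antiviral defence, rose from 3.08 ± 2.62 to 613 ± 214 CPM (log2 fold change 7.58, and 8.18 without cow 94). THBD, the thrombin-binding receptor thrombomodulin, had 1.73, 2.42 and 1.78 CPM in control wells and 100, 45.6 and 65.4 CPM in exposed wells (log2 fold change 4.96, SE 0.25, adjusted p = 5.03e-07). ADM, a vasodilator peptide, rose from 1.49 ± 0.241 to 128 ± 48.2 CPM (6.28), GFPT2, the entry enzyme of hexosamine synthesis, from 0.479 ± 0.224 to 38.1 ± 30.1 CPM (6.11), and ADAMTS5, a protease of cartilage proteoglycans, from 0.0999 ± 0.0552 to 12.5 ± 4.32 CPM (6.86). AVIL (advillin), an actin-binding protein, rose by a log2 fold change of 5.69, and by 6.40 without cow 92.

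The matrix, protease and adhesion list held 9 rises and 3 falls among 17. ITGB8, the integrin subunit that activates TGF-beta, rose from 8.87 ± 0.698 to 124 ± 44.8 CPM (log2 fold change 3.69, adjusted p = 1.72e-06), the proteoglycan VCAN from 13.9 ± 3.46 to 129 ± 62.7 CPM (3.16) and the plasminogen activator inhibitor SERPINB2 from 149 ± 54.5 to 915 ± 409 CPM (2.58). PDGFB, a mesenchymal growth factor, fell from 46.9 ± 13.8 to 17.4 ± 12.9 CPM (log2 fold change -1.61, adjusted p = 0.00026).

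Cell cycle and DNA replication genes fell as a group: 35 of 38 were lower in exposed wells, and the median log2 fold change was -1.83. TOP2A, the topoisomerase of dividing cells, had 93.03, 106 and 134 CPM in control wells and 14.5, 15.0 and 22.3 CPM in exposed wells (log2 fold change -2.69, SE 0.14, adjusted p = 5.44e-07). E2F8, a cell cycle repressor, fell by 3.04 on the log2 scale, CDC20, the activator of the anaphase complex, by 2.67 and CDC6, which loads replication origins, by 2.65. UHRF1, which keeps DNA methylation through replication, fell from 45.3 ± 10.2 to 7.20 ± 0.733 CPM (log2 fold change -2.63), and TCF19, a cell cycle-linked factor outside the list, from 18.1 ± 4.92 to 2.11 ± 0.737 CPM (-3.10). The member that rose was CDKN1A (p21), an inhibitor of the cycle, from 457 ± 86.4 to 719 ± 237 CPM with overlapping wells (log2 fold change 0.61, adjusted p = 0.00325). That call was lost without cow 92 or cow 94, when the cow was not fitted, and under upper-quartile factors or library totals alone. FEN1 and CDKN1B were not called (log2 fold changes -0.55 and 0.39).

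Glycolysis and hypoxia genes were split, with 11 rises and 4 falls among 27 and a median log2 fold change of 0.19. The glucose transporter SLC2A3 rose from 325 ± 67.1 to 1385 ± 380 CPM (log2 fold change 2.07, adjusted p = 1.69e-05), and the hypoxia-induced carbonic anhydrase CA12 and the enolase ENO3 by 2.58 and 2.20. Among enzymes of glycolysis, GAPDH fell from 1867 ± 140 to 1233 ± 245 CPM (log2 fold change -0.61, not called without cow 92), PFKP fell by 1.09 on the log2 scale, and ENO1 had 1698 ± 57.9 and 1940 ± 89.7 CPM. PDK4, which diverts pyruvate from the mitochondria, fell from 115 ± 10.3 to 42.5 ± 6.63 CPM. Of 12 respiratory chain subunits, 4 citric acid cycle enzymes and 12 cytosolic ribosomal proteins, 0 were called in either direction by edgeR's test or by DESeq2. At an unadjusted p below 0.05, whatever the fold change, there were 6, 1 and 6 genes in these lists, among them ATP5MC3 (log2 fold change -0.40, adjusted p = 0.00543) and RPS12 (0.37, adjusted p = 0.00403). With library totals alone, 1 respiratory chain subunit and 1 citric acid cycle enzyme were called lower, and without cow 92 these counts were 2 and 1.

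In the lipid list 5 of 10 genes fell and 2 rose. LPL, the lipase that takes up fatty acids from lipoproteins, had 1836, 2554 and 2613 CPM in control wells and 289, 436 and 380 CPM in exposed wells (log2 fold change -2.67, SE 0.09, adjusted p = 8.77e-08). FABP5 (-1.34), FASN (-1.14) and CYP27A1 (-1.11), which carry, make and oxidise lipids, fell as well. The cholesterol exporter ABCA1 rose from 164 ± 29.3 to 437 ± 59.4 CPM (log2 fold change 1.42), and the phospholipid transfer protein PLTP from 14.6 ± 9.84 to 154 ± 78.6 CPM (3.47). GPNMB, a lysosomal glycoprotein of lipid-laden macrophages, fell from 1911 ± 289 to 359 ± 103 CPM (-2.44), and with TPCN1 (-3.03), a lysosomal channel, it made up the 2 falls among 10 lysosome genes. Of 20 ER and integrated stress genes, 6 rose and 1 fell (3 and 1 with library totals alone, and all 7 calls were lost when edgeR tested against a fold change of 1.5), with log2 fold changes of 0.85 for DNAJB9 and 0.82 for PPP1R15A. Of 6 reference genes often used to scale quantitative PCR, ACTB fell from 3370, 3320 and 4704 CPM to 1838, 1527 and 2026 CPM (log2 fold change -1.07, adjusted p = 2.59e-05). ACTB and GAPDH were called lower, and the other 4 were not.

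Most genes had no symbol here: of the 11759 tested, 2270 had one. Among genes with at least 10 CPM in a group, 13 of the 20 with the largest rise and 17 of the 20 with the largest fall had none. ENSBTAG00000012529 had 0 counts in the 3 control wells and 883 counts in the 3 exposed wells, at least 285-fold higher when the controls are set to 3 counts over the group. ENSBTAG00000004741 went from 0.203, 0.440 and 0.0772 CPM to 665, 325 and 308 CPM. ENSBTAG00000018240 fell from 44.5, 21.5 and 21.4 CPM to 0.271, 0.210 and 0.141 CPM, and ENSBTAG00000019669 from 327, 78.7 and 232 CPM to 1.01, 1.40 and 3.46 CPM. In all 4 the control and exposed wells were apart.

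The size of the response differed between the 3 cows. Over the 3419 called genes the median absolute log2 ratio of exposed to control was 1.25 in cow 91, 1.01 in cow 92 and 1.09 in cow 94. Cow 91 had the largest ratio of the 3 in 1912 genes (55.9%), cow 94 in 890 and cow 92 in 617. The control library of cow 91 was the smallest and that of cow 92 the largest of the 6, and the part of depth in these ratios was not tested. The called genes whose ratio varied most between cows were CCL8, APOBEC3Z1, FBP1, ANKRD22 and CNTFR. FBP1, an enzyme of gluconeogenesis, had 0.507, 1.98 and 28.9 CPM in the control wells of cows 91, 92 and 94 and 0.609, 0.210 and 8.32 CPM in their exposed wells, so that most of its signal came from cow 94. The adjusted p of FBP1 was 0.012, and the call was lost without cow 92, without cow 94 or without a term for the cow. ANKRD22 had log2 ratios of 5.37, 3.25 and 3.63 in cows 91, 92 and 94, and CNTFR, a cytokine receptor subunit, of 4.39, 5.30 and 3.21.

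The same phenotype had been sampled at 3 hours from other wells on another plate, by the study's methods from the same cows. Cows were not linked between time points in the fit of the 12 low responder libraries. The difference between the effect at 18 hours and the effect at 3 hours was tested in that fit. It was called in 2374 of 11599 genes (20.5%), of which 921 (7.94%) were positive (18 minus 3 hours) and 1453 (12.5%) negative. A negative difference can be a smaller rise or a deeper fall at 18 hours. The count was 882 without a term for the cow. Scaling by library totals alone shifted the median difference of all genes from 0.03 to 0.27 and turned the split to 2169 and 1001. Plate and time point cannot be told apart, although each effect was taken against the control wells of its own plate. Across the 11599 genes the effects at the 2 time points had a Pearson correlation of 0.61, a description over genes of the same libraries.

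In this fit 1391 genes were higher in exposed wells at 18 hours, of which 714 (51.3%, and 60.2% of the 1186 higher at 3 hours, 10.2% of genes tested) were also called higher at 3 hours, and 2033 were lower at 18 hours, of which 566 (27.8%, and 46.2% of the 1224 lower at 3 hours, 10.6%) were called lower at 3 hours. Of the genes lower at 18 hours 1429 (70.3%) were not called at 3 hours, and in 853 of these the difference between the time points was called as well. The low responder libraries of 3 hours held between 6297190 and 14615657 expected counts, against 8987288 to 20936554 at 18 hours. The part of depth in what was not called at 3 hours was not tested. In 232 of the 669 genes higher at 18 hours and not called at 3 hours the difference was called. A further 38 genes were higher at 3 hours and lower at 18 hours, and 8 went the opposite way.

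**Figure D4:**
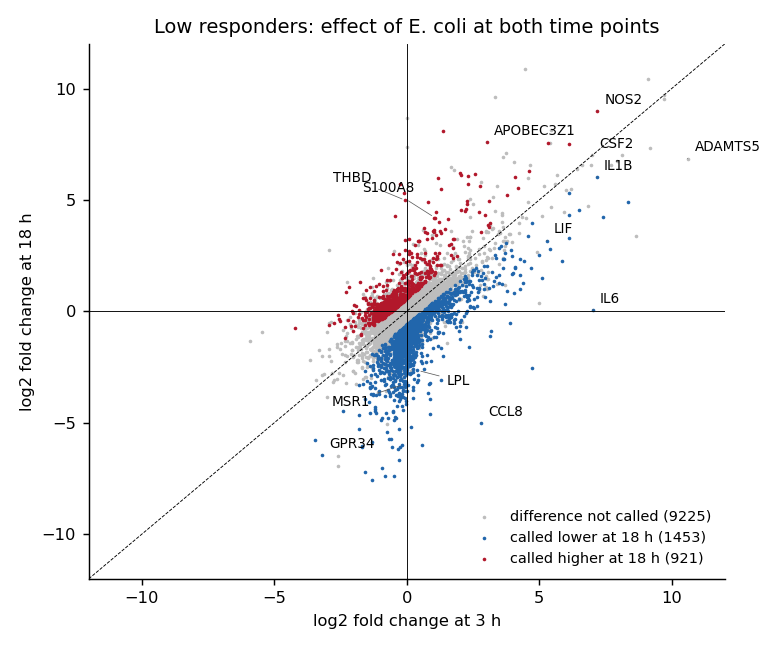
Log2 fold change of E. coli against control at 3 hours (x) and 18 hours (y) in low responders, with 1 point for each of the 11599 genes of the fit and a dashed line where both are equal. Red points are the 921 genes whose effect was called higher at 18 hours, blue points the 1453 called lower, and grey points the 9225 with no called difference. A band of blue points hangs below 0 near the middle of the x axis, and IL6 lies on the right at about 0 on the y axis.

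Among genes with a symbol that passed the rule for named genes, the largest positive differences were those of THBD (difference of log2 fold changes 5.04, SE 0.46), APOBEC3Z1 (4.57), AVIL (3.40), S100A9 (3.18) and S100A8 (3.15). THBD was not called at 3 hours, when its mean was 1.98 CPM in control and 1.95 CPM in exposed wells, and reached a mean of 70.4 CPM at 18 hours. S100A9 and S100A8 had log2 fold changes of 1.01 and 1.06 at 3 hours against 4.19 and 4.21 at 18 hours in the fit of both time points. The calls of AVIL, S100A8 and S100A9 were lost without a term for the cow, and that of AVIL without the 3 hour cow of code 93. NOS2 was up at both times, by log2 fold changes of 7.179 at 3 hours and 8.999 at 18 hours in the same fit (difference 1.82, adjusted p = 8.14e-05), and CSF2 by 6.986 and 6.998 (difference 0.01, SE 0.28).

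By the same rule, the largest negative differences were those of CCL8 (difference -7.80), IL6 (-6.95), TNFSF13 (-3.56), SIGLEC1 (-3.53) and ARHGEF10L (-3.47). IL6 had risen at 3 hours from a mean of 1.40 to 177 CPM (log2 fold change 7.02), and at 18 hours its exposed wells had 0.997 ± 0.714 CPM. CCL8 had risen at 3 hours from 270 to 1850 CPM (log2 fold change 2.80) before it stood below its controls at 18 hours, and its difference was -8.79 without the 18 hour cow 94. MSR1 had 590 CPM in control and 553 CPM in exposed wells at 3 hours, and LPL was not lower at that time (log2 fold change 0.40), so that the falls of both were called as late (differences -3.17 and -3.05). ARHGEF10L ranged from -2.84 without the 18 hour cow 91 to -4.32 without the 18 hour cow 94.

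Gene groups followed different courses. All 13 NF-kB genes were called higher at 3 hours, with a median log2 fold change of 2.36, and in 11 of them the effect was called smaller at 18 hours. Interferon-stimulated genes were called higher in 24 of 33 at 3 hours (median log2 fold change 0.85), and in 24 the effect was called lower at 18 hours, and the other 9 were not called. ISG15, for example, had a log2 fold change of 2.20 at 3 hours and IFI44L of 0.90. Cell cycle genes had 14 falls among 38 at 3 hours (median log2 fold change -0.36), and in 30 of them the effect was called lower at 18 hours. Antimicrobial proteins were mixed, with 5 of 8 called higher and 3 called lower at 18 hours than at 3 hours. In MHC class I processing the difference was called higher in 3 and lower in 1 of 14 genes, a share close to that of all tested genes with a symbol. Among those genes 28.4% were called for the difference between the time points and 30.1% at 3 hours. With library totals alone the counts of lower effects at 18 hours were 8 of 13 NF-kB genes, 19 of 33 interferon-stimulated genes and 29 of 38 cell cycle genes. Without a term for the cow they were 7, 13 and 12, and the calls of the antimicrobial proteins were lost.

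**Figure D5:**
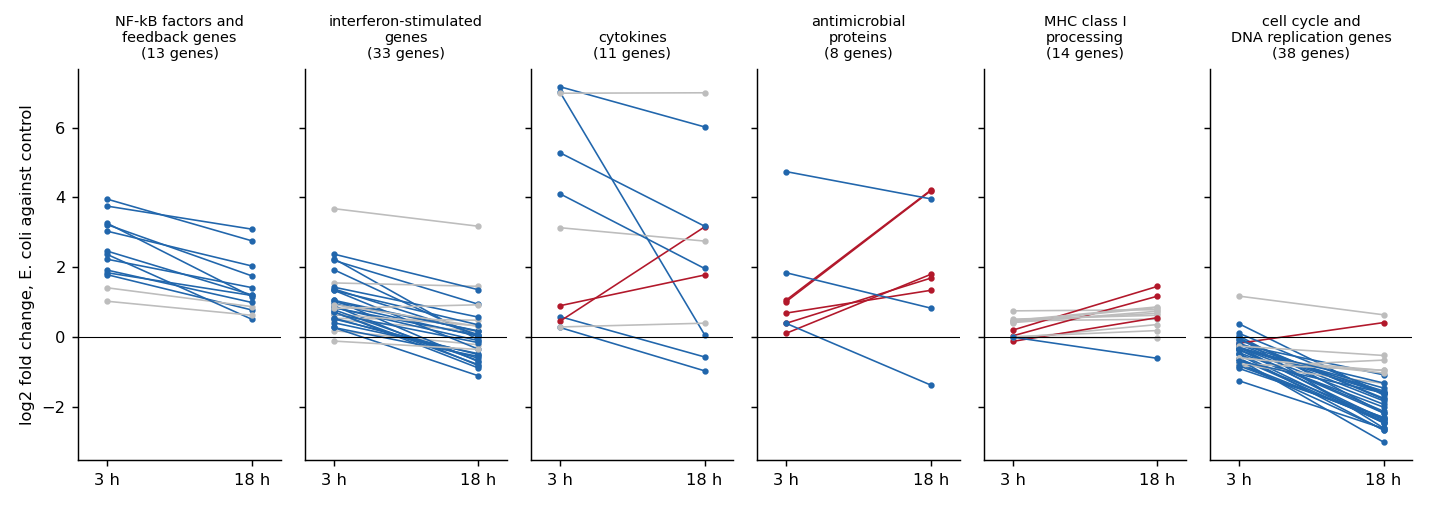
Log2 fold change of E. coli against control at 3 and 18 hours in low responders for the members of 6 gene lists, with 1 line per gene. Blue lines are genes whose effect was called lower at 18 hours, red lines genes called higher and grey lines genes with no called difference. Most lines of NF-kB genes slope down and stay above 0, those of interferon-stimulated genes slope down to both sides of 0, most of those of cell cycle genes slope down away from 0, and 5 of 8 antimicrobial genes slope up.

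High responders at 18 hours, from 3 other cows with their own controls, were used to ask where the late response of low responders differs. In them 39.6% of the genes tested were called, 17.1% higher and 22.5% lower. Of the 1327 genes that rose in low responders 1191 (89.8%, and 59.2% of those that rose in high responders) also rose in high responders, and of the 2092 that fell 1841 (88.0% and 69.4%) also fell. The effect was larger in high responders in 989 (74.5%) of the genes that rose and in 1409 (67.4%) of those that fell, with median log2 fold changes of 1.07 against 1.39 and -1.21 against -1.42. These genes were selected for passing in low responders. The difference between the phenotypes was called in 190 of 11759 genes (1.62%), of which 157 (1.34%) were negative (low minus high) and 33 (0.281%) positive. The count was 395 with DESeq2, 0 without a term for the cow (1150 genes had an unadjusted p below 0.05), 30 without the low responder cow 92 and 76 without the low responder cow 94.

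Genes that rose less in low responders included NXPE4 (log2 fold change 4.78 in low and 8.57 in high responders, difference -3.79), S100A8 (4.19 and 7.32, difference -3.13) and FOXS1 (1.35 and 4.55, difference -3.20). THBS1 went in opposite directions, with log2 fold changes of -3.05 in low and 0.76 in high responders (difference -3.81, SE 0.29). In the other direction LGMN, the lysosomal protease legumain, had 1334, 666 and 1291 CPM in the control wells of low responders and 1202, 1211 and 1316 CPM in their exposed wells, a log2 fold change of 0.24, while it fell in high responders (adjusted p = 9.34e-05, difference 1.54, adjusted p = 0.0138). UHRF1 (-2.63 and -3.91) and POLE (-1.63 and -2.89), a replicative polymerase, fell less in low responders, and TPCN1 had -3.03 and -5.60. RAB38, a GTPase of lysosome-related organelles, rose in low responders (log2 fold change 1.82) and not in high responders (0.07). None of these calls held without a term for the cow. THBS1, S100A8, S100A9 and LGMN kept theirs when any 1 cow was left out, UHRF1 lost its own without the low responder cow 92, and those of NXPE4, FOXS1, TPCN1, RAB38 and POLE were each lost without at least 2 of the 6 cows.

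Of the 33 interferon-stimulated genes 20 rose in high responders at 18 hours and the others were not called, against 5 rises and 7 falls in low responders, and the difference was called in 12, all lower in low responders. It was called in 5 of 9 antimicrobial proteins and in 6 of 14 genes of MHC class I processing, again all lower in low responders, and in 6 of 38 cell cycle genes, all with a positive difference. These counts share the limits given above for the 190 genes: over all genes, 2 positive and 28 negative differences were called without the low responder cow 92, and 0 without a term for the cow. Symbols were at hand more often for genes that differ between the phenotypes: 7.22% of the tested genes with a symbol were called against 1.62% of all. The tables that gave the symbols report the study's own comparison of high and low responders in these libraries. Of the called differences, 32 of 33 positive and 132 of 157 negative ones belonged to genes with a symbol. The counts of called differences in lists are thus not independent of that comparison. For the effect in high responders at 18 hours, 58.5% of the tested genes with a symbol were called. The list counts are therefore not those of whole pathways.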

How the data were processed

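The authors trimmed paired reads with Trimmomatic, mapped them with STAR 2.7.0a to UMD 3.1 (Ensembl release 94) and quantified them with RSEM 1.3. They deposited expected counts (estimated read pairs, not normalized), TPM and effective lengths for each library. Here the deposited expected counts were rounded and analysed in R 4.3.3 with edgeR 4.0.16: filterByExpr by group, TMM factors and a quasi-likelihood model. In it every pair of wells had its own level. E. coli had 1 effect in each phenotype (12 libraries of 18 hours, 4 residual degrees of freedom) or at each time point (12 low responder libraries). Deposited TPM were tabulated only, and effective lengths served as offsets in 1 alternative. Genes were called at a Benjamini-Hochberg adjusted p below 0.05 over all genes tested and a fold change above 1.5.

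Pairing came from the library code: deviations from the group mean correlated at 0.327 to 0.517 in the 3 pairs of equal number, against -0.357 to -0.0386 for unequal numbers. Deviations of 3 wells from their mean sum to 0, so positive values for equal numbers by themselves pull the others below 0. The labels do not say that a number is a cow, and the correlations cannot show it. With a term for each pair, p values measure how the ratio of exposed to control varies between pairs, not how levels vary between cows. That spread was estimated over all 12 libraries of a fit, with information shared across genes, so it is not that of the 3 low responder pairs at 18 hours alone. Sparse genes are harder to call at this depth.

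Members and gene lists were chosen with earlier results of these data known. Named were, by direction, the 12 called genes with a symbol, at least 10 CPM, 3 pairs alike and no overlap that changed most, the 5 that differed most by the same rule between time points and between phenotypes, up to 4 called members per direction and 2 uncalled members of each list, cell type markers, the 5 called genes that varied most between cows and the 5 with the highest CPM. The unnamed identifiers with the largest changes were chosen after their values were seen. Symbols come from copies of 2 supplementary tables of the study that hold only part of their rows. Alternatives were other size factors, other filters, DESeq2 1.42.0, other fits and thresholds, and leaving out each cow. The fits were also run on simulated data with 200 changed genes. The main fit recovered 182 of them with 2 false calls. The counts were 163 and 9 for the difference between time points, and 161 and 8 for low minus high responders. In the last, 59 of 87 changes of 2-fold were recovered. Far fewer genes changed there than the 29.1% called here, so the simulation does not test the normalization at that share. No genome or promoter sequence was used, and results for some genes are not reported.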

Additional observations from a re-analysis of the deposited data

Results flagged for a closer look

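The effect of E. coli in low responders differed between 18 and 3 hours, by the test of that difference, in 2374 genes. Among genes with a symbol that passed the rule for named genes, the largest differences (log2, 18 minus 3 hours) were THBD at 5.04, APOBEC3Z1 at 4.57, AVIL at 3.40, S100A9 at 3.18 and S100A8 at 3.15, and in the other direction CCL8 at -7.80, IL6 at -6.95, TNFSF13 at -3.56, SIGLEC1 at -3.53 and ARHGEF10L at -3.47.

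At 18 hours the effect differed between low and high responders in 190 genes. By the same rule, the largest differences (log2, low minus high) were -3.81 for THBS1, -3.79 for NXPE4, -3.20 for FOXS1, -3.15 for S100A9 and -3.13 for S100A8, and 2.56 for TPCN1, 1.75 for RAB38, 1.54 for LGMN, 1.28 for UHRF1 and 1.26 for POLE. No group here has more than 3 samples, so that single samples were not tested as outliers.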

How the results depend on the processing

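The count of genes called in low responders at 18 hours, 3419, was 2028 when the test itself required a fold change of 1.5 and 5596 with no minimum fold change, and it was between 2728 and 3617 under the other alternatives that kept all cows, with 2924 without the replicate block (no term for the cow). It was between 2905 and 3416 with 1 low responder cow left out. Library totals alone shifted the median of all genes by -0.12 and gave 1009 genes higher and 2482 lower. For the difference between 18 and 3 hours (2374 genes), the count was 882 without the block and 959 when a fold change of 1.5 was tested, between 1938 and 2180 with 1 cow left out, 2035 with the cows of both time points matched by the letters of the library code, and 3170, with 2169 higher, with library totals alone. For low minus high responders (190 genes) it was 448 at an adjusted p below 0.1, 435 with no filter on low counts, 395 with DESeq2, 124 with all 24 libraries in 1 fit, 18 when a fold change of 1.5 was tested, 0 without the block and between 30 and 178 with 1 cow left out, while library totals alone gave 66 positive and 83 negative of 149.

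Of 2253 values for 141 named genes called at 18 hours, 2186 stayed past the thresholds in the same direction, and none changed direction. The same held for 186 of 190 values of the difference between time points and for 140 of 180 between phenotypes. The cause of these changes was not tested. Depth and 3 cows per group limit what can be called.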
